A study of Mus musculus with 10 samples.

Results

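Mouse cheek skin was examined for 10 genes of the cytokine and receptor systems linked to itch and type 2 inflammation: Il31ra, Osmr, Osm, Il4ra, Il13ra1, Il13ra2, Tslp, Crlf2, Il33 and Il1rl1. They were chosen by name, and all 10 of 10 were found among the 18994 genes of the deposited table. All 10 also passed the filter on low counts. The tissue came from C57BL/6 mice aged 6 to 8 weeks that carried no transgene or deletion named in the labels. All 10 mice had the cheek shaved 3 days before, and the right cheek was injected into the dermis with 5 µL. In the MMP9 group (5 mice) that volume held 1 µg of matrix metalloproteinase 9, a secreted gelatinase, and in the vehicle group (5 mice) it held vehicle only. The tissue was taken 4 hours after the injection, and the whole cheek sample was sequenced, so the libraries mix epidermis, dermis, hair follicles and muscle. The labels used here do not state what the vehicle contained, where the protein came from or which sex the mice had, and uninjected skin is not analysed here. The labels number a separate mouse for each library. Mice are named below by group and number. The same number in both groups does not mark the same animal.

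These genes belong to a few receptor systems. Interleukin 31 binds a receptor made of Il31ra and Osmr, and Osmr also pairs with Il6st (gp130) to bind oncostatin M, the product of Osm. Interleukins 4 and 13 share Il4ra, which joins Il13ra1 in the receptor on epithelial and stromal cells, while Il13ra2 binds interleukin 13 as a decoy. The epithelial cytokine TSLP signals through Crlf2 together with Il7r, and the alarmin interleukin 33 signals through ST2, encoded by Il1rl1, with Il1rap. These cytokines are known in skin from atopic dermatitis, and some of them act directly on sensory neurons that carry itch. The cell bodies of those neurons lie in ganglia outside the skin. Of 6 sensory neuron markers, Mrgpra3 had 3, Snap25 had 18, Rbfox3 had 22 and Calca had 62 counts over all 10 libraries, and these 4 did not pass the filter. Trpv1 with 276 and Nppb with 258 counts passed it, near the totals of Tslp (311) and Osm (332). Together the 6 summed to between 1.75 and 6.93 CPM (counts scaled to library size). The keratinocyte markers summed to between 6858 and 13968 CPM and the fibroblast markers to between 4867 and 10738 CPM. No marker gene of any cell type examined passed the edgeR test between groups. The median log2 fold change of the markers was -1.22 for hair shaft and inner root sheath (0 of 5 positive), with sums of 2.13 to 3949 CPM in vehicle and 3.11 to 1357 CPM in MMP9. It was 0.48 for mast cells (5 of 6 positive), with 84.9 to 422 CPM in vehicle and 245 to 473 CPM in MMP9. For dendritic and Langerhans cells it was 0.40 (5 of 6 positive), with 45.2 to 88.6 CPM in vehicle and 62.1 to 101 CPM in MMP9. For T and innate lymphoid cells it was 0.36 (4 of 5 positive), but the sums were nearly level. They were 156 to 196 CPM in vehicle and 158 to 198 CPM in MMP9. The 2 tested neuron markers went opposite ways, Nppb at 0.81 and Trpv1 at -0.32, with a median of 0.25. The other 7 cell types had medians between -0.20 and 0.16.

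Total estimated counts per library lay between 17121541 and 19443099. MMP9 mouse 4 stood apart. Ribosomal protein genes held 12.9% of its counts, against 6.57% to 7.42% in the other 9 libraries. Its median TPM (the level per transcript length, scaled to the library) over the tested genes was 8.75, against 13.5 to 14.7 elsewhere. It was the highest or the lowest library for 50.8% of the 15250 tested genes. The scale matters for it: TPM values of most genes are low in that library, whereas CPM is corrected by factors from the trimmed mean of M values (TMM). Vehicle mouse 2 and MMP9 mouse 1 had almost no hair shaft transcripts, with marker sums of 2.13 and 3.11 CPM against 271 to 3949 CPM in the others.

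Receptor transcripts differed widely in abundance, and the order was much the same in both groups. By TPM, the scale that allows genes to be compared, Il13ra1 was the most abundant with 73.5 ± 10.2 TPM in the vehicle group and 76.8 ± 19.5 TPM after MMP9 (SD, n = 5 each). Il33 followed at 67.0 ± 10.8 and 63.8 ± 20.0 TPM. Osmr stood at 32.8 ± 5.73 and 32.7 ± 16.1 TPM, and Il4ra at 33.2 ± 9.96 and 30.0 ± 17.4 TPM. A lower tier held Crlf2 with 18.5 ± 4.84 and 19.4 ± 5.78 TPM, Il13ra2 with 14.7 ± 1.66 and 15.0 ± 3.46 TPM, Il31ra with 15.7 ± 2.08 and 11.4 ± 3.52 TPM, and Il1rl1 with 13.7 ± 10.1 and 13.2 ± 12.1 TPM. Of the 3 ligand genes, Il33 was thus among the most abundant transcripts, whereas Tslp (2.66 ± 0.400 and 2.42 ± 0.636 TPM) and Osm (1.41 ± 1.15 and 1.72 ± 0.961 TPM) were the scarcest of the 10.

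**Figure D1:**
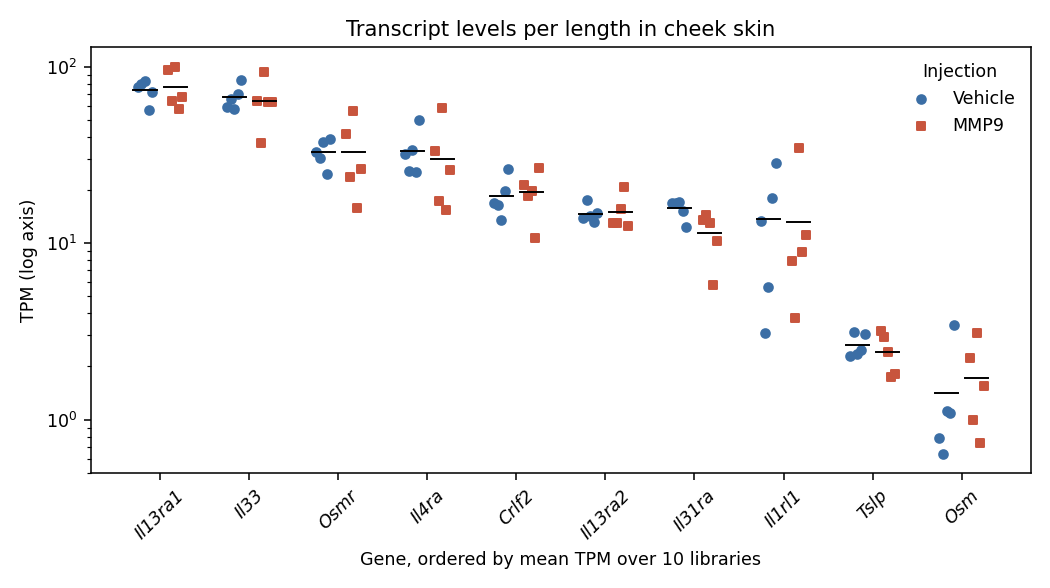
Transcript level per length (TPM, log axis) of the 10 genes in 5 vehicle libraries (circles) and 5 MMP9 libraries (squares), with a line at each group mean and the genes ordered by their mean over 10 libraries. Il13ra1 and Il33 lie highest and Tslp and Osm lowest, and Il1rl1 is spread from 3.09 to 34.4 TPM.

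Neighbours in this order were often not separated. Il33 exceeded Osmr in 10 of 10 libraries, the only neighbouring pair whose order held in every one. Il1rl1 exceeded Tslp in 9 of 10, with vehicle mouse 2 as the exception, and Il4ra exceeded Crlf2 and Tslp exceeded Osm in 8 of 10 each. Il13ra1 was above Il33, Osmr above Il4ra, and Crlf2 above Il13ra2 in 7 of 10 libraries. Il13ra2 and Il31ra, and Il31ra and Il1rl1, each kept their order in 5 of 10 and so cannot be ranked. Against all 18994 listed genes, Il13ra1 lay at the percentile 89.5 of mean TPM, Il31ra at 59.4 and Osm at 29.1.

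No member of the group passed the test for a difference between MMP9 and vehicle. With edgeR's quasi-likelihood test and Benjamini-Hochberg adjustment over all genes, 0 of 10 passed at 0.05, and over all 15250 tested genes the share called was 0%. The adjusted p of the members ran from 0.981 to 0.9997. At an unadjusted p under 0.05 there was 1 of the 10, Il31ra, lower in MMP9, where 3.19% of all tested genes reached that level in either direction, 1.12% lower and 2.07% higher in MMP9. DESeq2 and limma-voom also passed 0 of the 10, with 1 at an unadjusted p under 0.05 in each. The log2 fold changes of the 10 ran from -0.44 to 0.29 with a median of 0.01, beside a median of 0.01 over all tested genes. In none of the 10 were the groups fully separate in CPM, which was the case for 0.564% of all tested genes (0.426% higher and 0.138% lower in MMP9). The 95% interval lay within 1 of zero on the log2 scale for 8 of the 10, against 90.2% of all tested genes, and the exceptions were Osm and Il1rl1.

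**Figure D2:**
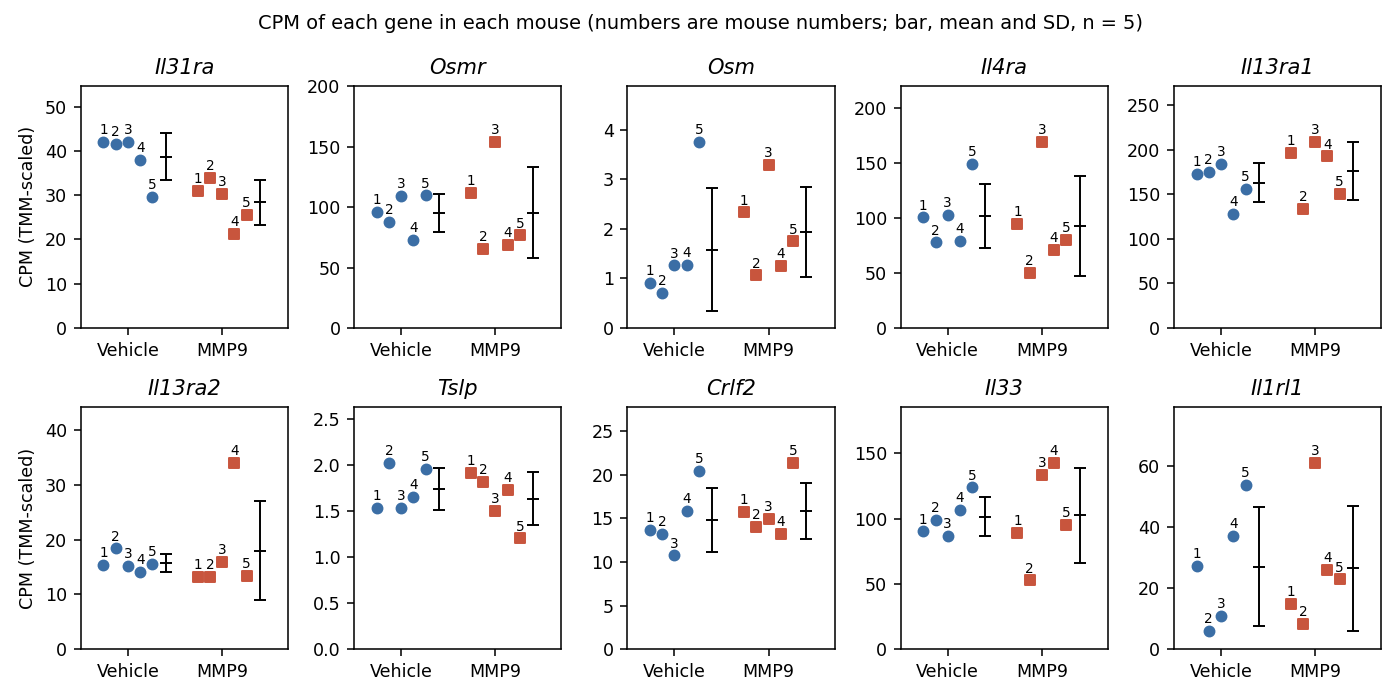
TMM-scaled CPM (y axis, from 0) of each of the 10 genes in each mouse, vehicle as circles and MMP9 as squares, labelled with the mouse number, with the mean and SD of each group (n = 5). Il31ra shows the lower MMP9 values, Il13ra2 the high value of MMP9 mouse 4, and Il1rl1 the wide spread in both groups.

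Il31ra (Entrez gene 218624), the subunit specific to the interleukin 31 receptor, had the smallest p of the group. In CPM the vehicle mice 1 to 5 had 42.0, 41.7, 42.1, 38.0 and 29.6, and the MMP9 mice 1 to 5 had 31.0, 33.9, 30.4, 21.2 and 25.5. Vehicle mice 1 to 4 were above every MMP9 mouse, and vehicle mouse 5 lay within the MMP9 range, so the groups overlapped. The means were 38.7 ± 5.34 and 28.4 ± 5.03 CPM (SD, n = 5). The log2 fold change was -0.44 (standard error 0.14, 95% interval -0.75 to -0.14), and it did not pass in edgeR (adjusted p = 0.981, unadjusted p = 0.00898). MMP9 mouse 4, the library that stood apart, had the lowest value, and without it the log2 fold change was -0.36. Whether its library composition has a part in the Il31ra value was not tested. Over all 19 alternatives of the processing the value stayed between -0.53 and -0.36, and the adjusted p between 0.887 and 1.

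The sequence before the RefSeq start of Il31ra is shown because this gene had the largest change relative to its error. The window is the 250 bases before the start on the minus strand of chr13:112580663-112580912 (GRCm38.p6, promoter sequences from RefSeq). It overlaps no exon of GENCODE M21, and lies in an intron of longer Il31ra transcripts that begin further upstream in that annotation. Capitals mark a match to TTCNNNGAA, the palindrome that STAT proteins bind, read on both strands at once because the motif equals its own reverse complement.
Il31ra: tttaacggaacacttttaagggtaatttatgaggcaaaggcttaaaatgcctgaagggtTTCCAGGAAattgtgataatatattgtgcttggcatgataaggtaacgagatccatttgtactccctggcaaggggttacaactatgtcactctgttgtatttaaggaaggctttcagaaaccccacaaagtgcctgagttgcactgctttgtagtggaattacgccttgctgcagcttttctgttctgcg
The match TTCCAGGAA runs from 191 to 183 bases before the start. Of 32851 promoter windows of this length, 7.02% hold such a match, so its presence is a description of the letters only.

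Osmr (Entrez gene 18414) is the partner of Il31ra and also a subunit of the oncostatin M receptor. Its CPM in vehicle mice 1 to 5 was 96.2, 88.1, 109.6, 72.8 and 109.8, and in MMP9 mice 1 to 5 it was 112, 65.6, 154, 69.1 and 76.6. The MMP9 values lay both above and below all vehicle values, 2 on each side. The log2 fold change was 0.00 (standard error 0.23, 95% interval -0.51 to 0.52). Read within a library, the ratio of Il31ra to Osmr in TPM had a median of 0.520 in vehicle (range 0.316 to 0.616) and 0.365 in MMP9 (0.230 to 0.608), and these ranges overlap. Il6st, the shared signalling subunit, had a log2 fold change of 0.06.

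Osm (Entrez gene 18413), a cytokine made mainly by myeloid cells and T cells, rested on 13 to 75 counts per library. In CPM the vehicle mice 1 to 5 had 0.908, 0.710, 1.26, 1.27 and 3.76, and the MMP9 mice 1 to 5 had 2.33, 1.06, 3.30, 1.25 and 1.75. Vehicle mouse 5 was the highest of all, nearly level with MMP9 mouse 3, and the other 4 vehicle mice were at or below 1.27. The log2 fold change was 0.29 (standard error 0.47, 95% interval -0.74 to 1.32). Without vehicle mouse 5 it was 0.90 and did not pass in edgeR (adjusted p = 0.977, unadjusted p = 0.0321). In that fit 594 of 15305 genes had an unadjusted p under 0.05. Without MMP9 mouse 3 the log2 fold change of Osm was 0.01. The value therefore rested on these mice.

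The interleukin 4 and 13 receptor chains showed no common shift. Il4ra (Entrez gene 16190), the signalling chain, had 100.5, 77.8, 103, 79.3 and 149 CPM in vehicle mice 1 to 5 and 94.7, 50.3, 169, 71.1 and 80.2 CPM in MMP9 mice 1 to 5. Its highest and lowest values were both in the MMP9 group, and the log2 fold change was -0.13 (standard error 0.30). It went to -0.46 without MMP9 mouse 3 and to 0.04 without vehicle mouse 5. Il13ra1 (Entrez gene 16164), the second chain of the receptor, lay between 128 and 184 CPM in vehicle and between 134 and 209 CPM in MMP9. Of the 5 MMP9 mice, 3 were above all vehicle mice, and the log2 fold change was 0.11 (standard error 0.15, 95% interval -0.21 to 0.44). In TPM the count was 2 of 5, since MMP9 mouse 4, at 193 CPM but 57.6 TPM, then lay below 4 of the 5 vehicle mice, and the difference on log2(TPM + 1) was 0.04. Without vehicle mouse 4 the log2 fold change in CPM was 0.02, without MMP9 mouse 3 it was 0.04, without MMP9 mouse 1 it was 0.07, and without MMP9 mouse 2 it was 0.20.

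Il13ra2 (Entrez gene 16165), the decoy receptor, was nearly level in all libraries but one. Vehicle mice 1 to 5 had 15.4, 18.4, 15.2, 14.1 and 15.5 CPM, and MMP9 mice 1 to 5 had 13.2, 13.1, 15.9, 34.0 and 13.4 CPM. MMP9 mouse 4 held the value that stood out, and 3 of the other 4 MMP9 mice were below all vehicle mice. In TPM MMP9 mouse 4 was less far off, at 20.8 against 12.5 to 17.4 in the other libraries. On log2(TPM + 1) the difference between groups was 0.01. The log2 fold change was 0.18 (standard error 0.26), and without MMP9 mouse 4 it was -0.18. The ratio of Il13ra2 to Il13ra1 in TPM was 0.360 in that library and between 0.135 and 0.231 in the other 9. The part of this library's composition in the Il13ra2 value was not tested.

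The 250 bases before the RefSeq start of Il13ra2 are shown because its CPM value in MMP9 mouse 4 lay far from those of the other mice. They are on the minus strand of chrX:147429193-147429442 (GRCm38.p6). Capitals mark a match to TGANTCA, the site of AP-1 transcription factors, again a motif equal to its own reverse complement.
Il13ra2: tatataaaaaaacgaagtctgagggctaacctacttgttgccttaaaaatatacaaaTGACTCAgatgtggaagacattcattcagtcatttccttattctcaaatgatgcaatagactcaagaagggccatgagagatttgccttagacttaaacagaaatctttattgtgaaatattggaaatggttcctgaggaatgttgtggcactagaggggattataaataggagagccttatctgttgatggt
The match TGACTCA lies from 193 to 187 bases before the start, and 6.75% of the 32851 windows hold one. The motif TTCNNNNGAA, the wider STAT spacing, is held by 5.85% of windows and is not in this one. None of these motifs overlapped another in the windows of the group.

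Il33 (Entrez gene 77125), stored in nuclei of epithelial and stromal cells, had 90.1, 98.9, 86.5, 107 and 124 CPM in vehicle mice 1 to 5 and 88.9, 52.7, 133, 142 and 95.1 CPM in MMP9 mice 1 to 5. The MMP9 group again held both the highest and the lowest mouse, in CPM mouse 4 and mouse 2. In TPM MMP9 mouse 4 had 62.6, within the vehicle range of 57.1 to 84.0, and MMP9 mouse 3 was highest at 93.3. The means were 101 ± 14.9 and 102 ± 36.3 CPM (SD, n = 5), and the log2 fold change was 0.02 (standard error 0.23, 95% interval -0.49 to 0.53). It was -0.14 without MMP9 mouse 4 and 0.18 without MMP9 mouse 2. Tslp (Entrez gene 53603) rested on 22 to 39 counts per library and lay between 1.53 and 2.02 CPM in vehicle and between 1.20 and 1.92 CPM in MMP9. Its log2 fold change was -0.09 (standard error 0.18), and its interval ran from -0.49 to 0.31. Crlf2 (Entrez gene 57914), the TSLP receptor chain, lay between 10.8 and 20.4 CPM in vehicle and between 13.2 and 21.3 CPM in MMP9, with a log2 fold change of 0.10 (standard error 0.18). Vehicle mouse 5 and MMP9 mouse 5 were its highest libraries.

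Il1rl1 (Entrez gene 17082), which encodes ST2, varied more between mice than any other member. Vehicle mice 1 to 5 had 27.3, 6.12, 10.9, 37.2 and 53.9 CPM, and MMP9 mice 1 to 5 had 14.8, 8.34, 61.0, 25.9 and 22.9 CPM. Both groups ran from under 10 to over 50 CPM, a 9.98-fold range over the 10 mice, and they overlapped almost fully. The means were 27.1 ± 19.5 and 26.6 ± 20.4 CPM (SD, n = 5). Their log2 fold change was -0.03 (standard error 0.61, 95% interval -1.36 to 1.31). A change of 2-fold in either direction therefore lay inside the interval. The SD within groups on the log2 scale was 1.18, larger than that of 98.2% of tested genes, whose median was 0.242. The hair shaft markers were lowest in vehicle mouse 2 (2.13 CPM) and MMP9 mouse 1 (3.11 CPM), with 6.12 and 14.8 CPM of Il1rl1. The other libraries had 271 to 3949 CPM of these markers and 8.34 to 61.0 CPM of Il1rl1. Vehicle mouse 3, the highest in these markers, had 10.9 CPM of Il1rl1. Without vehicle mouse 2 and MMP9 mouse 1 the log2 fold change of Il1rl1 was -0.13. Mast cells are known to carry ST2, and their 6 markers summed to 417 CPM in vehicle mouse 5 and 396 CPM in MMP9 mouse 3, the highest Il1rl1 libraries, with 84.9 to 473 CPM in the others. Whether hair follicle or mast cell content has a part in the spread was not tested.

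Il1rl1 has 2 annotated starts in RefSeq, and they are shown because the deposited table has 1 row for the gene. The gene is known to yield a membrane receptor and a soluble decoy from alternative starts and ends, and the single value cannot tell these forms apart. The windows are the 250 bases before each start on the plus strand, chr1:40429320-40429569 for the upstream one and chr1:40439379-40439628 for the downstream one (GRCm38.p6). The downstream window lies inside longer Il1rl1 transcripts of GENCODE M21.
Il1rl1 upstream start: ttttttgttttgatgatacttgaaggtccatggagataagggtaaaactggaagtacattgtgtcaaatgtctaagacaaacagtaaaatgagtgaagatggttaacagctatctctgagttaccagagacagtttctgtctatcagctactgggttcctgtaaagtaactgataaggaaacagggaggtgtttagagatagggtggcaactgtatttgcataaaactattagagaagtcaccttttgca
Il1rl1 downstream start: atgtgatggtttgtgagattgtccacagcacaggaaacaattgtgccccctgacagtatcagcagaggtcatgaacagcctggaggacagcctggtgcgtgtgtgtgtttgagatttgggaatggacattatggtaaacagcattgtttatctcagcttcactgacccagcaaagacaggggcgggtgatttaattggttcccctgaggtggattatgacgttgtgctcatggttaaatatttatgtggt
Neither window holds TTCNNNGAA, TTCNNNNGAA or TGANTCA, so no letters are in capitals. RefSeq windows were found for 8 of the 10 genes, 10 windows in all, and 7 of the 10 windows held none of the 3 motifs. Osm and Tslp had no window here. The search left out 1 whole chromosome, also from the 32851 windows counted, so a missing window need not mean that RefSeq has none. The remaining match was TTCTGGGGAA in a window of Il33, from 36 to 27 bases before the start.

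The differences between mice were larger than those between groups for several members, and some members were high in the same mice. Osm, Il4ra and Il1rl1 each had their highest 2 values in vehicle mouse 5 and MMP9 mouse 3, that is in 3 of 10 members, where 2.35% of all tested genes had their highest 2 values in that pair. In CPM, MMP9 mouse 2 was the lowest library for Osmr, Il4ra, Il13ra2 and Il33, 4 of 10 members, against 5.76% of all tested genes. In TPM this held for Il33 only. The lowest TPM of Osmr (15.8) and Il4ra (15.3) was in MMP9 mouse 4, and that of Il13ra2 (12.5) in MMP9 mouse 5. These patterns were noticed in the values, so the counts are a description. Neutrophil markers summed to 117 CPM in vehicle mouse 5 and 74.1 CPM in MMP9 mouse 3, within the range of the other libraries, 26.1 to 194 CPM, with 26.1 CPM in MMP9 mouse 2. The part of leukocyte content in these values was not tested. In a bulk sample, fewer cells of a type and less RNA per cell cannot be told apart. By the SD within groups, Il4ra (0.528) and Osm (0.752) were more variable than 90.0% and 95.6% of tested genes, while Il31ra (0.244), Il13ra1 (0.246) and Tslp (0.219) were close to the median of 0.242.

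**Figure D3:**
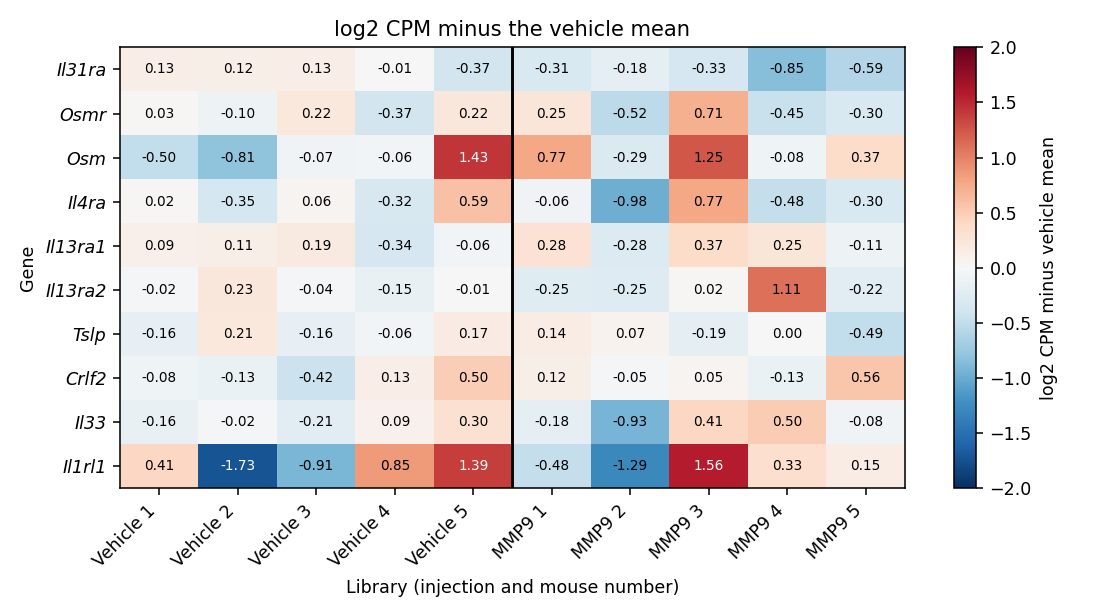
Log2 CPM minus the vehicle mean for the 10 genes (rows) in the 10 libraries (columns), with the value in each cell and the groups parted by a line. Vehicle 5 and MMP9 3 are high for Osm, Il4ra and Il1rl1, MMP9 2 is low for Il4ra, Il33 and Il1rl1, and Il31ra is below 0 in all 5 MMP9 libraries.

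For each member, the 3 genes whose log2 CPM followed it most closely over the 10 libraries were found among 14620 other genes with a mean of at least 1 CPM. Likeness is Pearson's r and is given without a test, since the best of so many genes is high by selection. Il31ra was followed by Fxr2 (0.961), Kcnj15 (0.951) and Ell (0.944). Like Il31ra, these were lowest in MMP9 mouse 4, with 73.3, 10.9 and 38.0 CPM. Osmr was followed by Sbno2 (0.971), a cofactor induced downstream of STAT3, by Nup160 (0.971), a nuclear pore gene, and by Selp (0.963), which encodes P-selectin of activated endothelium and platelets. Osm was followed by Plaur (0.943), the urokinase receptor gene, by Tgs1 (0.930) and by Socs2 (0.927), a feedback inhibitor of cytokine receptors. Plaur had 35.4 CPM in vehicle mouse 5 and 33.7 CPM in MMP9 mouse 3, its 2 highest libraries as for Osm. Il4ra was followed by Sdad1 (0.966), by Cgas (0.939), the cytosolic DNA sensor, and by Ptpn1 (0.934), a tyrosine phosphatase.

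The remaining receptors each had a different set of followers. Crlf2 was followed by Tnfrsf1b (0.970), a tumour necrosis factor receptor, by Hacd4 (0.967) and by Hk3 (0.959), a hexokinase of myeloid cells. Macrophage markers summed to 799 CPM in vehicle mouse 5 and 697 CPM in MMP9 mouse 5, the highest Crlf2 libraries, and to 160 to 715 CPM in the others, and the part of macrophage content in Crlf2 was not tested. Il1rl1 was followed by Tubb6 (0.962), by Mmp19 (0.931), a matrix metalloproteinase, and by Eps8 (0.926). Il13ra1 was followed by Gng4 (0.932), Zfp202 (0.926) and Dbr1 (0.901). Il13ra2 was followed by the proteasome genes Psma5 (0.983) and Psma1 (0.980) and the splicing factor gene Sf3b5 (0.980), each with its highest value in MMP9 mouse 4, at 154, 210 and 64.2 CPM. Il33 was followed by Timm50 (0.931), Gtf2f1 (0.903) and Rwdd4a (0.880). Timm50 and Gtf2f1 were also highest in MMP9 mouse 4, at 42.8 and 68.3 CPM, whereas Rwdd4a was highest in MMP9 mouse 3. Tslp was followed by the cornified envelope genes Sprr2h (0.921) and Sprr1b (0.893), which mark activated keratinocytes, and by Ddx47 (0.864). Sprr1b ran from 1.15 CPM in MMP9 mouse 5, the lowest Tslp library, to 132 CPM in vehicle mouse 2, the highest.

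Other genes of these pathways were read from a list of 30 partners and a list of 24 feedback and target genes. Of the partners, 25 were tested and 0 passed in either direction in edgeR, with a lowest adjusted p of 0.981. Positive log2 fold changes were found in 15 of the 25, with a median of 0.03, beside 53.7% positive and a median of 0.01 over all tested genes. The 3 with the smallest p were Il7 and Il7r, ligand and receptor of interleukin 7, and Il11ra1, the interleukin 11 receptor. Il7 had 6.73 ± 0.631 and 8.60 ± 1.61 CPM (SD, n = 5) and a log2 fold change of 0.35, and in 3 of 5 MMP9 mice it was above all vehicle mice. Il7r, which is also the second chain of the TSLP receptor, had 10.8 ± 3.98 and 13.9 ± 1.47 CPM, with vehicle mouse 5 highest at 17.0 CPM. Its log2 fold change of 0.36 went to 0.59 without that mouse and to 0.23 without vehicle mouse 3. Il11ra1 had a log2 fold change of 0.18 (standard error 0.12), which was 0.11 without vehicle mouse 2 and 0.12 without MMP9 mouse 4. Among the signalling genes Jak1, Stat3 and Stat6 the log2 fold changes were 0.01, -0.08 and -0.03.

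The type 2 ligands themselves were barely detected. Il4 had 15, Il5 had 26, Il25 had 37 and Il13 had 56 counts over all 10 libraries, and none of these 4 passed the filter. Il13 had 1, 3, 4, 8 and 2 counts in vehicle mice 1 to 5 and 11, 9, 6, 6 and 6 counts in MMP9 mice 1 to 5. Vehicle mouse 4 lay within the MMP9 range, and the other 4 vehicle mice were below all MMP9 mice. Tested without the filter, Il13 had a log2 fold change of 1.05 (standard error 0.46) and did not pass in edgeR (adjusted p = 0.961, unadjusted p = 0.0441). In that fit 614 of 18957 genes had an unadjusted p under 0.05. Il4 had a log2 fold change of 1.33 (standard error 0.87), Il5 -0.19 and Il25 -0.09, each with a larger p than Il13. Values this near the level of 3 counts, 0.150 to 0.208 CPM, were too low to compare firmly at this depth.

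Of the 24 feedback and target genes, all were tested and 0 passed, with 12 positive, 12 negative and a median log2 fold change of -0.01. Socs1, a feedback inhibitor of JAK kinases, had the smallest p, with 18.7, 16.1, 24.6, 14.8 and 23.8 CPM in vehicle mice 1 to 5 and 27.9, 20.9, 38.7, 27.0 and 22.0 CPM in MMP9 mice 1 to 5. MMP9 mice 1, 3 and 4 were above all vehicle mice, and the log2 fold change was 0.48 (standard error 0.20), not past the threshold in edgeR (adjusted p = 0.981). Without MMP9 mouse 3 it was 0.31. Ccl11, the eotaxin gene, had 131 ± 40.2 and 184 ± 57.8 CPM and a log2 fold change of 0.49, which was 0.32 without MMP9 mouse 4. Fcer2a, the low-affinity IgE receptor gene, had a log2 fold change of 0.86 (standard error 0.47), set largely by 3.35 CPM in MMP9 mouse 3, and without that mouse it was 0.28.

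**Figure D4:**
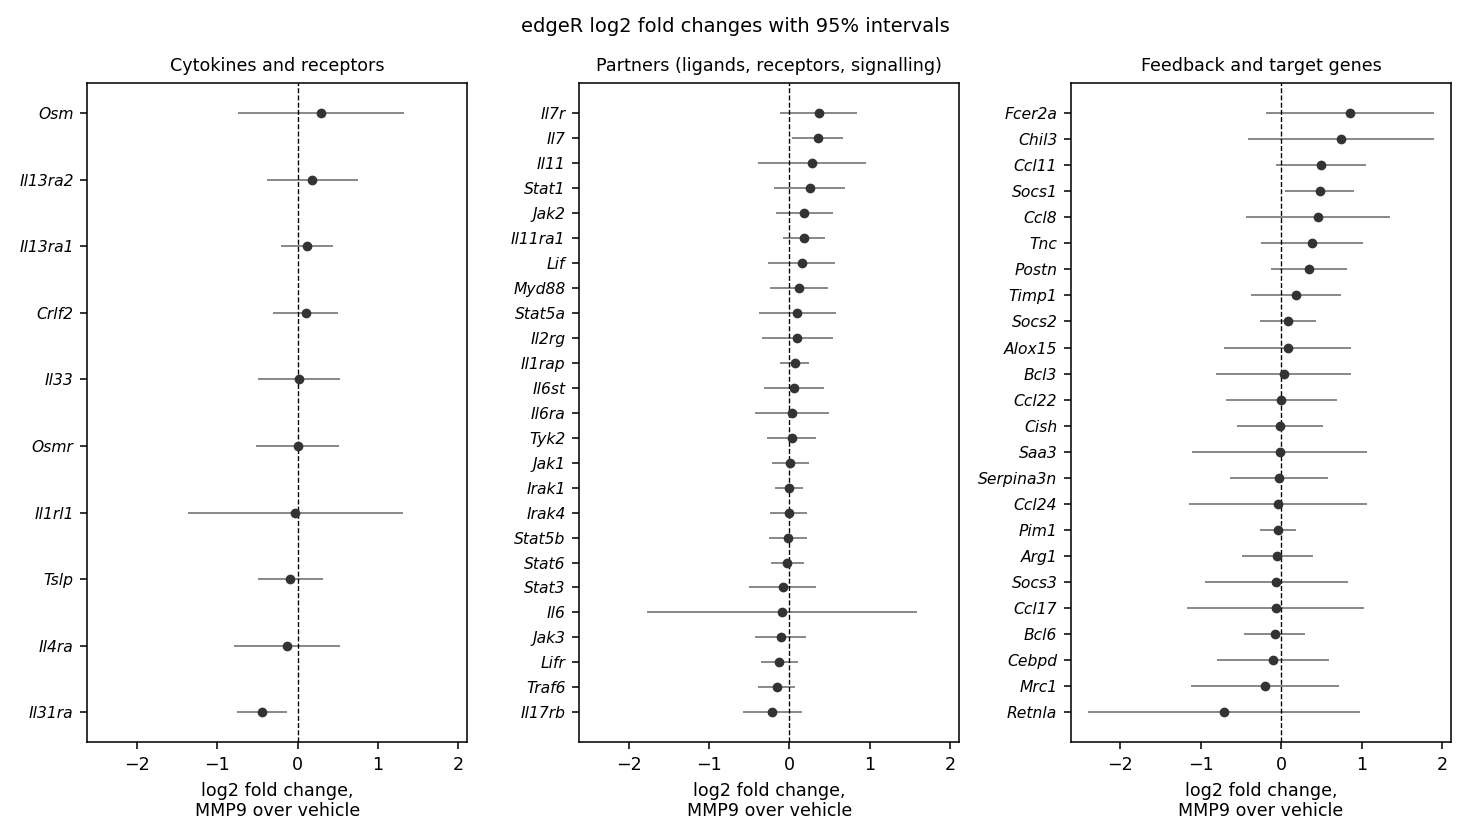
edgeR log2 fold changes, MMP9 over vehicle (x axis), with 95% intervals for the 10 genes, the 25 tested partners and the 24 feedback and target genes, each panel sorted by value. The intervals of Il31ra, Il7 and Socs1 leave out 0 before adjustment, and none of the genes passed after adjustment over 15250 genes.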

How the data were processed

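Cheek skin mRNA of 10 mice (5 vehicle, 5 MMP9), selected with oligo(dT), was read as single ends of 50 bases on a DNBSeq instrument, per the labels' protocols. The authors deposited 1 table of estimated counts of reads per gene, which need not be whole, beside FPKM and TPM values scaled by transcript length, per the file headers. HISAT and GRCm39 are named in the submitters' processing notes. No source used here names the counting program, annotation, versions or strand, so reads of overlapping genes cannot be told apart: in GENCODE M21 (GRCm38), Il31ra, Il4ra and Tslp each overlap another annotated gene, 3 of the 10. The deposited FPKM values and the authors' group means were not used.

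After rounding, the counts went into edgeR 4.0.16 under R 4.3.3 (TMM factors, filterByExpr by group, quasi-likelihood F test with group only, Benjamini-Hochberg adjustment, threshold 0.05). The filter kept 15250 of 18994 genes, which held 99.95% of counts. Levels are TMM-scaled CPM, or deposited TPM for comparing genes. Standard errors come from the F statistic, and intervals are at 95%. In simulated data the fit called 28% of 50 genes changed 1.5-fold, 70% at 2-fold and 98% at 4-fold. Of its 157 calls there, 9 were false. The simulation changed many genes at once, all with a mean of at least 1 CPM, and held no library like MMP9 mouse 4. With many changed genes the adjustment is more lenient than in the real data, where 0 genes passed. These shares are therefore not the power of the test in the real data. Alternatives were RLE factors, no filter, a filter at 1 CPM on average, DESeq2 1.42.0 and limma 3.58.1 (voom, and a trend on log2(TPM + 0.1) or log2(TPM + 1)), mouse number as a block, and leaving out libraries. Promoter sequences came from a RefSeq table of GRCm38.p6 with 1 chromosome left out, matched by symbol, and their coordinates were not converted.

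The members, the lists of partners and targets and the markers were chosen with earlier results of these data known. Named genes are the 10 members, the 3 tested genes of each list with the smallest p, the ligands below the filter, the 3 genes most like each member (log2 CPM, prior count 2), and marker genes of cell types whose summed level is given. Il6st, Jak1, Stat3, Stat6 and the motifs lie outside this rule, having been picked once values were known. No library repeats another: the closest pair differed by a chi-square of 17.8 per gene, far above sampling noise.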

Additional observations from a re-analysis of the deposited data

Results flagged for a closer look

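Of 38 groups of 5 libraries examined (the 10 genes, the 6 other named tested genes and the 3 ratios, each in both treatments), 2 held a library far from the rest. Chance gives about 1 in 20 such groups. In the vehicle group, Osm was 3.76 CPM in mouse 5, with a gap to the next mouse of 0.818 of the group's range. In the MMP9 group, Il13ra2 was 34.0 CPM in mouse 4, with a gap of 0.866 of the range. In TPM that mouse had 20.8 and the next MMP9 mouse 15.7, and the gap was not examined on that scale. That library also had 12.9% of its counts in ribosomal protein genes and a TMM factor of 0.843, against 0.993 to 1.05 in the other libraries.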

How the results depend on the processing

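No member was called under any of the 19 alternatives, and neither was any gene of the partner or target lists. Over all genes, DESeq2 called 1 gene where edgeR called 0, and the 18 other alternatives called 0. Direction was less stable for members whose log2 fold change was near 0, and no cause was tested for these turns. For Osmr (0.00) the value was -0.00517 with RLE factors, -0.00476 without the filter, -0.00697 with DESeq2, -0.0650 with limma-voom, -0.13 on log2(TPM + 0.1), -0.12 on log2(TPM + 1), -0.0623 with the replicate block and -0.0880 without both libraries of lowest hair shaft level. For Il33 (0.02) it was -0.0486 with limma-voom, -0.12 on log2(TPM + 0.1), -0.12 on log2(TPM + 1) and -0.0515 with the replicate block, and for Il1rl1 (-0.03) it was 0.0448 with limma-voom. Leaving out 1 mouse at a time gave ranges of -0.24 to 0.11 for Osmr, -0.14 to 0.18 for Il33, -0.60 to 0.38 for Il1rl1, -0.46 to 0.0433 for Il4ra, -0.18 to 0.28 for Il13ra2, -0.16 to 0.00145 for Tslp and -0.0303 to 0.24 for Crlf2. Il31ra (-0.53 to -0.36), Osm (0.01 to 0.90) and Il13ra1 (0.02 to 0.20) kept their direction when 1 mouse was left out, as did Il7, Il7r, Il11ra1, Socs1, Ccl11 and Fcer2a, the only other genes for which this was run. The replicate block, with the mouse number as a term, called 0 genes and 0 members. The labels give no link between same-numbered mice. Their deviations from the group means correlated at between -0.242 and 0.455, over 0.1 for 3 of the 5 numbers, and 3 of 10 libraries matched their own number best, so the mice were not taken as paired. With the block Il31ra had -0.45 with a standard error of 0.109, against 0.14 without it, and did not pass in edgeR (adjusted p = 0.9955, unadjusted p = 0.00392). The type 2 ligands below the filter, with 15 to 56 counts over all libraries, were too low to compare firmly at this depth.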
